A study of Homo sapiens with 32 samples.

Results

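Interferon-induced genes are described here across 32 human cell lines established from acute myeloid leukaemia (AML). The group was a list of 39 gene symbols, and 38 of them had a probe set that the platform's name table gives that single symbol. STAT2 had none under that rule and was not analysed here. The 38 genes were read by 66 probe sets among 54675, 21 genes had more than 1, and for each gene the probe set with the highest mean over the 32 lines was used. They were 38 of 15455 genes that passed a filter on low values, out of 19775 with a single symbol, and no measured member was lost to the filter.

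Total RNA from untreated lines was hybridised, with 1 array for each line. The lines were grown in 4 ways. In RPMI 1640 with serum and no named cytokine there were 21 lines, KMOE-2 among them. SH-2, SHI-1, OCI-M2 and OCI-M1 grew in IMDM with serum. F-36P was kept in RPMI 1640 with serum and IL-3 at 5 ng/ml, and OCI-AML2, OCI-AML5 and OCI-AML3 in alpha-MEM with serum and either GM-CSF or SCF, the labels not saying which. The labels give no medium for MV4-11, MOLM-13 and MOLM-16. None of the lines carries an added gene or an interferon treatment in the labels. HL-60 with PLB-985, and KG-1 with KG-1A, are known as sublines of the same origin, so each pair was averaged and 30 units were compared. A level below is log2(signal + 16), where signal is the deposited array intensity. A difference of 1 is 2-fold on that scale, which understates the change of genes of low signal.

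Type I interferons, the alpha and beta interferons, bind a receptor of IFNAR1 and IFNAR2 and act through the kinases TYK2 and JAK1. The factor ISGF3, which takes its DNA-binding subunit from IRF9, then binds the interferon-stimulated response element in the promoters of its target genes. Those targets include sensors of viral RNA, enzymes that block viral replication, the ubiquitin-like protein ISG15 with its ligases, and regulators that raise or end the response. Interferon alpha has been given as a drug in myeloid leukaemias, and cells can also make interferon beta themselves when their own sensors are set off.

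The promoters of 5 members are shown because they carry, or lack, the letters that ISGF3 binds. Of the 39 members, 31 had a promoter in the RefSeq table of GRCh38.p14, from 250 bases before to 50 bases after the start. The core of the response element was searched on both strands as the letters GAAA, any 2 bases and GAAA again, with overlapping matches kept. It was found in 22 of the 31 members, or 71.0%, and in 4.38% of 27305 genes with a promoter in the table. The core of the gamma-activated site, TTCNNNGAA, which can share letters with the first motif, was in 10 of the 31 members, or 32.3%, and in 9.38% of the 27305 genes. Shown are the 150 bases before the start, 5′ to 3′ on the gene's strand, for the 4 members of widest spread that hold this core and for XAF1, the member of widest spread that holds none. Capitals mark the response element core or its reverse complement.

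IFI27 (chr14:94110586-94110735, plus strand): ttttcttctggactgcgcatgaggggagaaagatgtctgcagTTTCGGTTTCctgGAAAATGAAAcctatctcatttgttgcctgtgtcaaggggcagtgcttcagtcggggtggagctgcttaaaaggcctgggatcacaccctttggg

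IFIT1 (chr10:89392473-89392622, plus strand): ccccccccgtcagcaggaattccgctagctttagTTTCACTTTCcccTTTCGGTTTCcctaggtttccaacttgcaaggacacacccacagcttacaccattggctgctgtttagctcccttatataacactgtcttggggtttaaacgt

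EPSTI1 (chr13:42992242-42992391, minus strand): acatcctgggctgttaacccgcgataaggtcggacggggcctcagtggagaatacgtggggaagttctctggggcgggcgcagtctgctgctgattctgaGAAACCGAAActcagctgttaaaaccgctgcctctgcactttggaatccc

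IFI44 (chr1:78649639-78649788, plus strand): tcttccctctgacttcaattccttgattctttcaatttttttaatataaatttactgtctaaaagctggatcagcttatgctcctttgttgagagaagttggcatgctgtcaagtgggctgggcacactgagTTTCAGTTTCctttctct

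XAF1 (chr17:6755896-6756045, plus strand): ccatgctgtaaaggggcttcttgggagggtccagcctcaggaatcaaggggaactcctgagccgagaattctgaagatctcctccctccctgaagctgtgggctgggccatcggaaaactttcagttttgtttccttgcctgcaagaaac

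IFI27 and IFIT1 each held 2 matches. In IFI27 they began at bases 108 and 95 before it, and in IFIT1 at bases 116 and 103. EPSTI1 held 1 match at base 50 and IFI44 1 at base 18 before the start. A match describes the letters in this window and is not a measured binding site. In KMOE-2, the line with the highest levels, members with the response element core stood a median of 3.49 above the median of the other units (n = 22 genes). Without it that median was 2.08 (n = 8 genes measured).

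The arrays were not all alike. The deposited values share 1 trimmed mean, and the median signal was 68.2 to 115.4 on 30 arrays and higher on NOMO-1 and GF-D8, where 16.8% and 20.5% of all genes tested lay at least 4-fold above the median of the other units. A further measure was the ratio of 3′ to 5′ GAPDH probe sets, which is higher in degraded RNA. It lay between 0.871 and 1.24 on 24 arrays and between 2.42 and 7.08 on the other 8, which were those of HL-60, GF-D8, NOMO-1, GDM-1, THP-1, MOLM-13, ML-2 and NB-4. KMOE-2 was at 0.880. All 8 blood cell markers read above the filter's level of 6.73 in KMOE-2, from SPI1 at 7.63 to LAPTM5 at 13.49, and 7 of them did so in all 30 units. LCP1 was lower in KMOE-2 than in any other unit, at 10.36 (median 12.31), and CORO1A read 10.15 (median 12.24). Among the 4 erythroid markers KMOE-2 had GATA1 at 10.27 (median over all units 6.99), EPOR at 10.03 (9.73), KLF1 at 6.79 (6.75) and ALAS2 at 5.56 (6.06). Of the 8 stromal and epithelial markers, KRT18 at 10.61 (median 8.16), COL1A1 at 8.57 (8.59) and KRT8 at 6.98 (7.47) read above the filter's level in KMOE-2, and the other 5 read 4.20 to 5.27 there. The part of other cells in the results was not tested.

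The interferon-induced genes were far more abundant in KMOE-2, a line known as erythroleukaemic, than in most other lines. KMOE-2 had the highest level of 30 units for 23 of 38 members, while it was highest for 3.11% of all genes tested. It was among the 3 highest units for 31 members, a count not set against all genes tested. For 27 members its level was at least 4-fold above the median of the other 29 units, as it was for 3.72% of all genes tested. The median difference over the 38 members was 3.12, and over all genes tested it was -0.05. Every member of the OAS family, of the small interferon-induced proteins and of ISG15 with its ligases had its highest level there on the probe set used. Another probe set was highest in GF-D8 for OAS3 and in NOMO-1 for HERC6. With 1 array of KMOE-2 these are measured differences with no test, and no error can be put on them. In bulk RNA of a line, a larger share of cells that express a gene and more RNA per cell cannot be told apart.

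**Figure D1:**
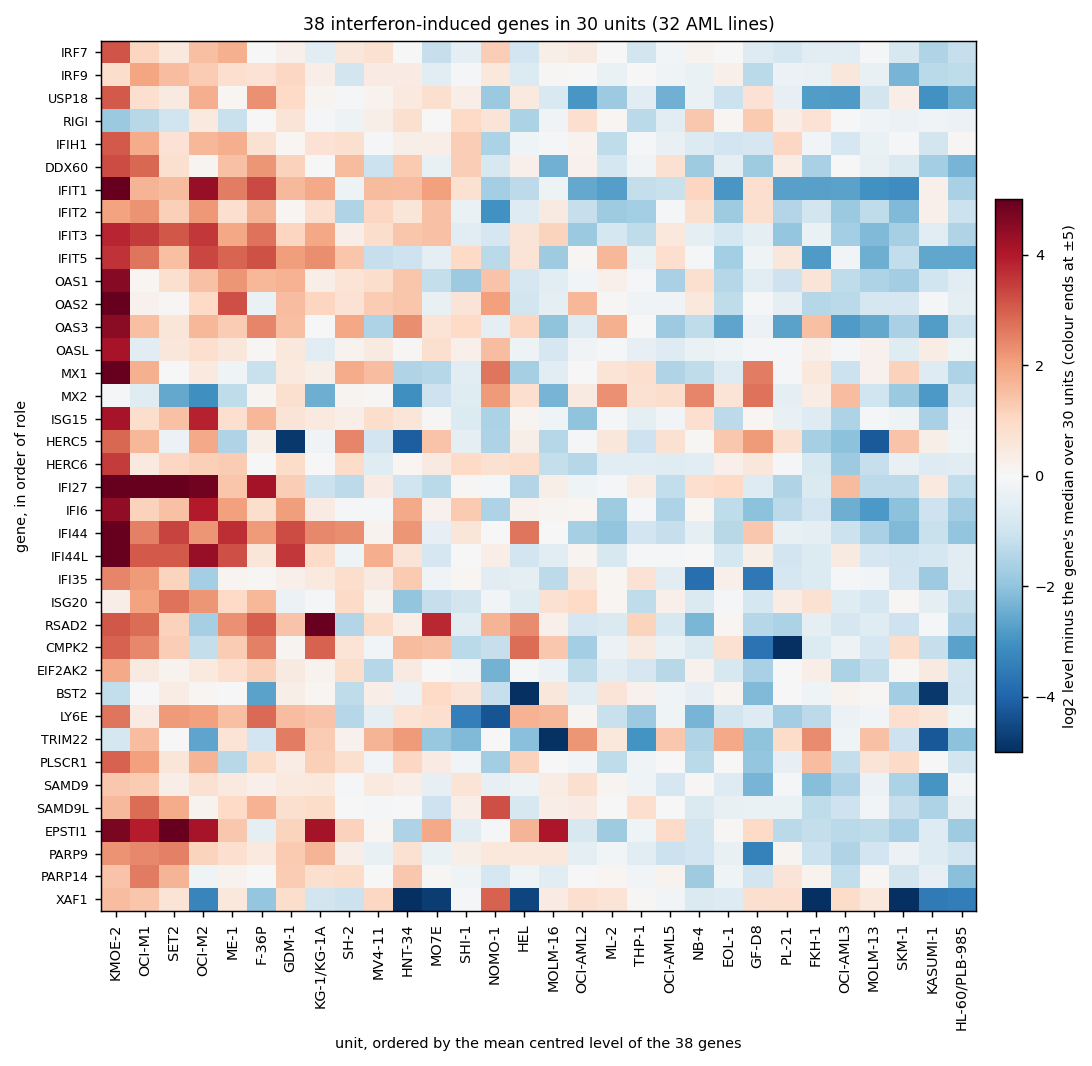
Colour shows each of the 38 genes' log2 level minus that gene's median over the 30 units, for genes in rows by role and units in columns by their mean level. KMOE-2 at the left is red for most genes. BST2, TRIM22, MX2 and, on the probe set used, RIGI lie below or near 0 there. The next columns, OCI-M1, SET2, OCI-M2 and ME-1, are red for fewer genes.

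A score for each unit was taken as the mean over the 38 genes of each gene's level after subtraction of its mean in the 30 units. KMOE-2 scored 2.98, and OCI-M1 followed at 1.62, SET2 at 1.23, OCI-M2 at 1.17, ME-1 at 1.00, F-36P at 0.94, GDM-1 at 0.86 and KG-1/KG-1A at 0.70. The others lay close together, from SH-2 at 0.28 down to FKH-1 at -0.74. The lowest were OCI-AML3 at -0.92, MOLM-13 at -0.92, SKM-1 at -1.04, KASUMI-1 at -1.23 and HL-60/PLB-985 at -1.26. A unit's own spread is unknown, but single lines of the averaged pairs give a scale. KG-1 scored 0.43 and KG-1A 0.96, HL-60 -1.35 and PLB-985 -1.17. Steps between neighbours in this order, other than that from KMOE-2 to OCI-M1, were smaller than the gap between KG-1 and KG-1A.

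All 38 genes spanned at least 9.29-fold between the lowest and the highest unit, and 22 spanned 64-fold or more. The median SD over units was 1.56 for the members and 0.80 for all genes tested. For 33 members the SD was smaller once KMOE-2 was left out.

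Among the regulators, IRF7, the factor that sustains production of alpha interferons, was at 7.82 in KASUMI-1, at a median of 9.31 and at 12.44 in KMOE-2. The next unit was ME-1 at 11.08, so KMOE-2 stood 2.57-fold above the next unit. IRF9, the DNA-binding subunit of ISGF3, ran from 7.21 in SKM-1 through a median of 9.54 to 11.50 in OCI-M1. KMOE-2 had rank 5 for it at 10.43. USP18 (219211_at), which removes ISG15 from proteins and dampens receptor signalling, lay between 4.90 in KASUMI-1 and 10.99 in KMOE-2 with a median of 7.91. F-36P came next at 10.21. Thus 2 of the 3 measured regulators were highest in KMOE-2.

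The RNA sensors and helicases gave a divided reading. IFIH1 (MDA5), which senses long double-stranded RNA, was 11.60 in KMOE-2 and 10.39 in OCI-M1, with a median of 8.55 and a lowest level of 6.98 in NOMO-1. DDX60, a helicase linked to RNA sensing, was 11.98 in KMOE-2 and 11.61 in OCI-M1, with a median of 8.73 and a lowest level of 6.34 in MOLM-16. RIGI, the sensor of RNA with a 5′ triphosphate, depended on the probe set. By the rule it was read by 242961_x_at, and KMOE-2 was then the lowest of 30 units at 6.82, with a median of 8.69 and 10.04 in NB-4. Its other probe sets, 218943_s_at and 222793_at, had KMOE-2 as the highest unit, at 11.55 and 10.10, or 11.0-fold and 5.22-fold above the median of the other units. They correlated with the chosen one at r of -0.36 and -0.21 over 30 units. An _x_at suffix marks probe sets whose probes may also match other sequences, so the direction for RIGI in KMOE-2 is uncertain. With 218943_s_at the counts became 24 members highest in KMOE-2 and 28 at least 4-fold up. Of 28 unchosen probe sets for the members, 22 correlated with the chosen one at r above 0.5 and 17 had KMOE-2 as the highest unit.

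The IFIT proteins bind viral RNA and block its translation. IFIT1 (203153_at) was at 4.32 in SKM-1, at a median of 7.43 and at 13.21 in KMOE-2, 64.4-fold above the median of the other units. OCI-M2 at 11.78 and F-36P at 10.75 were next, so high IFIT1 was not limited to KMOE-2. IFIT3 (229450_at), a partner of IFIT1, was 6.6 in MOLM-13, 8.80 at the median and 12.62 in KMOE-2, with OCI-M2 at 12.35 and OCI-M1 at 12.29 close behind. IFIT5 (203595_s_at) ran from 4.29 in FKH-1 through a median of 7.12 to 10.74 in KMOE-2, where OCI-M2 had 10.46. For IFIT2 the highest unit depended on the probe set. On the one used it was OCI-M1 at 9.81, then OCI-M2 at 9.74 and KMOE-2 at 9.57, over a median of 7.58 and a lowest level of 4.54 in NOMO-1. On the other it was KMOE-2 at 8.70, with the next unit at 8.47.

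The OAS enzymes sense double-stranded RNA and, OASL apart, make the 2-5A messenger that switches on RNase L. In this family KMOE-2 stood apart most clearly. OAS2 (204972_at) was 5.01 in FKH-1, 6.44 at the median and 12.58 in KMOE-2, while the next unit, ME-1, had 9.67. OAS1 was 5.27 in SHI-1, 7.09 at the median and 11.62 in KMOE-2, with ME-1 at 9.30. OAS3 (218400_at) ran from 5.27 in OCI-AML3 through a median of 8.11 to 12.64 in KMOE-2, and F-36P followed at 10.55. OASL, an OAS-like protein without enzyme activity, was 6.58 in MOLM-16, 7.41 at the median and 11.54 in KMOE-2, with NOMO-1 next at 8.94. KMOE-2 thus lay 7.52-fold, 4.98-fold, 4.24-fold and 6.03-fold above the next unit for OAS2, OAS1, OAS3 and OASL. OCI-M1, second in the score, had none of the 4 at 4-fold above the median of the other units.

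The GTPases MX1 and MX2, which block incoming viruses, behaved differently. MX1 (202086_at) was 4.61 in HEL, 6.27 at the median and 13.15 in KMOE-2. Its next unit was NOMO-1 at 8.94, an array of high median signal, and the 18.5-fold gap was the widest of any member. MX2 (204994_at) was 6.11 in HNT-34, 9.18 at the median and 11.90 in GF-D8, also of high median signal. In KMOE-2 it was 9.11, rank 16 of 30, just below the median of the other units at 9.25. The genes lie next to each other on chromosome 21, and their r over 30 units was 0.18.

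ISG15, a ubiquitin-like protein attached to other proteins, was 8.19 in OCI-AML2, 10.20 at the median and 14.32 in KMOE-2, and OCI-M2 had 14.06. HERC5 (219863_at), its main human ligase, was 4.49 in GDM-1, 9.29 at the median and 12.18 in KMOE-2. SH-2 was next for HERC5 at 11.75. HERC6, a related ligase, ran from 6.29 in OCI-AML3 through a median of 8.08 to 11.58 in KMOE-2, 4.73-fold above ME-1 at 9.34. These 3 genes shared KMOE-2 as the highest unit, but HERC5 hardly varied with the rest of the members (r of 0.16 over 30 units).

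The small interferon-induced proteins held the largest differences. IFI44L (204439_at), known as a marker of interferon exposure, was 4.25 in SKM-1, 5.24 at the median and 12.96 in KMOE-2, 211.8-fold above the median of the other units. OCI-M2 followed at 9.59, so the gap to the next unit was 10.3-fold. IFI44 (214453_s_at) was 5.19 in SKM-1, 7.40 at the median and 13.28 in KMOE-2, and ME-1 followed at 11.10. IFI27 (202411_at), a mitochondrial protein, was 4.34 in PL-21, 5.82 at the median and 13.09 in KMOE-2, but SET2 at 12.82 and OCI-M1 at 11.97 were close to it. IFI27 was thus near the lowest readings in most lines and high in a few. IFI6 (204415_at), an inhibitor of apoptosis in the same family, was 6.35 in MOLM-13, 9.21 at the median and 13.65 in KMOE-2, with OCI-M2 at 13.19. IFI35 ran from 5.02 in NB-4 through 8.77 to 11.20 in KMOE-2, where OCI-M1 had 10.90.

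The other antiviral effectors were less uniform. KMOE-2 was highest for 3 of these 11 genes and at least 4-fold up in 5. CMPK2 (226702_at), a mitochondrial nucleotide kinase, was 4.39 in PL-21, 10.31 at the median and 13.25 in KG-1/KG-1A, with KMOE-2 level with it at 13.24. RSAD2 (viperin, 242625_at), which makes a nucleotide that stops viral polymerases, was 5.03 in NB-4, 7.33 at the median and 12.27 in KG-1/KG-1A, where MO7E had 11.10 and KMOE-2 10.42. LY6E (202145_at), a surface protein that hinders entry of coronaviruses, was 5.94 in NOMO-1, 10.25 at the median, 13.10 in F-36P and 12.92 in KMOE-2. EPSTI1 (227609_at) was 5.43 in ML-2, 7.22 at the median, 12.66 in SET2 and 11.94 in KMOE-2.

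BST2 and TRIM22 went the other way. BST2 (tetherin, 201641_at), which holds budding virus on the cell surface, was 4.70 in HEL, 11.65 at the median and 12.66 in MO7E. KMOE-2 had 10.41, rank 24 of 30, or 0.421 times the median of the other units, although the BST2 promoter held the response element core. TRIM22 (213293_s_at), a ubiquitin ligase, was 5.46 in MOLM-16, 10.40 at the median and 12.95 in GDM-1, and KMOE-2 ranked 18 at 9.53. BST2 was thus high in most lines, KMOE-2 included, and lowest in HEL and KASUMI-1. ISG20, an exonuclease, was highest in SET2 at 9.64 and ranked 11 in KMOE-2 at 7.25, though on its other probe set KMOE-2 lay at 0.915 times the median of the other units. BST2, TRIM22, MX2 and RIGI by its rule were the 4 members below the median of the other units in KMOE-2.

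PLSCR1 (202446_s_at), a membrane protein that restricts virus entry, was 9.09 in GF-D8, 11.03 at the median and 13.99 in KMOE-2. EIF2AK2 (PKR), the kinase that halts translation on double-stranded RNA, was 12.96 in KMOE-2 over a median of 11.07, and SAMD9 11.14 over 9.78. For SAMD9L, its neighbour on chromosome 7, NOMO-1 was highest at 11.77 and KMOE-2 had rank 5 at 10.16. On another SAMD9L probe set, 230036_at, OCI-M1 was highest at 10.71. PARP9 and PARP14, which act in ADP-ribosylation, peaked in SET2 at 11.23 and OCI-M1 at 11.19, with KMOE-2 at rank 3 for both, at 10.94 and 10.01. The other PARP14 probe set, 232610_at, did not follow the one used (r of -0.03). On it NOMO-1 was highest and KMOE-2 had rank 12. XAF1 (228617_at), which promotes apoptosis, was low in a few lines and high in most. It read 4.42 in FKH-1, 10.59 at the median, 12.15 in KMOE-2 and 13.55 in NOMO-1, a 559.6-fold range, the widest of the members. On its other probe sets, 206133_at and 242234_at, OCI-M1 was highest in place of NOMO-1.

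**Figure D2:**
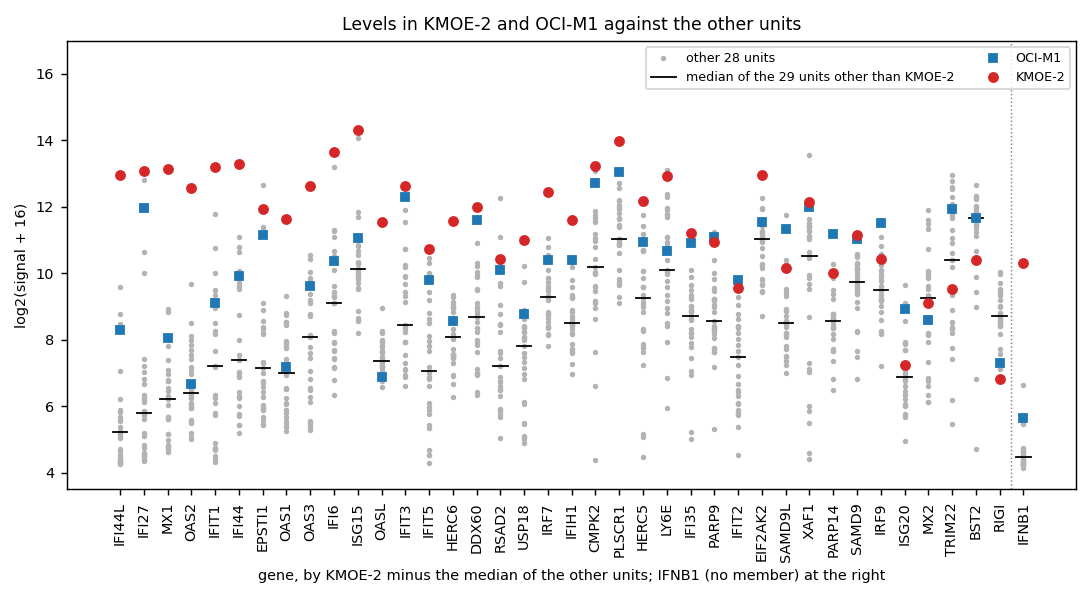
Points are log2(signal + 16) in each unit for the 38 genes and, right of the dotted line, IFNB1; red circles are KMOE-2, blue squares OCI-M1, grey dots the other 28 units and black bars the median of the 29 units other than KMOE-2. KMOE-2 lies clear of all grey dots for MX1, OAS2, IFI44L and IFNB1, while OCI-M1 lies near the bar for OAS1, OAS2 and OASL.

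Upstream of these genes, KMOE-2 differed at 1 interferon gene. The pathway genes given with levels in this and the next paragraph were picked from their lists after their values were seen. IFNB1, which encodes interferon beta and is not in the group, read 10.30 in KMOE-2, 6.62 in ME-1 and 4.50 at the median of the 30 units. It exceeded the filter's level in KMOE-2 alone, so it was in none of the tests across genes. Of the 17 other interferon genes measured, 0 lay 4-fold above the median of the other units in KMOE-2, and their differences ran from -1.33 to 0.89. The receptor genes IFNAR1 (7.90 in KMOE-2, median 8.79) and IFNAR2 (9.92, median 10.39) and the kinase TYK2 (10.12, median 11.16) lay below their medians there, and JAK1 (12.04, median 11.86) near its own. Of 18 genes of nucleic acid sensing measured, KMOE-2 was highest for IFI16, a DNA sensor, at 14.17 (median 10.35) and for DHX58 (LGP2) at 8.75 (median 4.71). DHX58 was below the filter. Of 7 negative regulators, KMOE-2 was highest for TRIM24 at 12.79, with MO7E at 12.77.

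With KMOE-2 set aside, OCI-M1 had the highest score. OCI-M1 lay at least 4-fold above the median of the other units for 16 of 38 members, against 4.70% of all genes tested. On the probe sets used it had the highest level for 3, IFIT2, PARP14 and IRF9, against 3.17%. The median difference over the members was 1.85. IFI27 led with 6.18, where OCI-M1 had 11.97, and it had the second largest difference in KMOE-2 as well, 7.31. IFI44L, the largest in KMOE-2 at 7.73, was at 3.07 in OCI-M1. By contrast OAS2 was 6.67 there, OAS1 7.18 and OASL 6.86, near or below the median of these genes. OAS3 was higher in OCI-M1, at 9.62 (rank 9), or 2.91-fold above the median of the other units. A second list of 31 interferon-induced genes, chosen mostly as targets of interferon gamma, had 29 members measured. OCI-M1 was highest for 9 of the 29 and KMOE-2 for 2, GBP5 and SP110. In OCI-M1 7 of the 29 lay at least 4-fold above the median of the other units, against 4.70% of all genes tested. The list was not uniform there, as CXCL9 was 6.09 (median 6.42), CIITA 7.08 (7.05) and IDO1 6.89 (6.72). In OCI-M1, GBP1, a GTPase of cell-autonomous immunity, was 12.57 (KMOE-2 8.80, median 5.17). TAP1, the peptide transporter for MHC class I, was 12.98 (KMOE-2 9.36, median 9.45). PSMB9 of the immunoproteasome was 13.60 (KMOE-2 10.87, median 10.91), and IRF1, the factor that drives such genes, 12.21 (KMOE-2 8.77, median 9.51). JAK2, a kinase of the interferon gamma receptor, was 13.23 in OCI-M1, the highest of 30 units, over a median of 8.31. The receptor's own genes were not high in OCI-M1, with IFNGR2 at 9.94 (rank 29, median 11.49) and IFNGR1 at 10.65 (rank 24, median 11.32). JAK1 was 11.54 there (median 11.86), and IFNG, below the filter, 5.24 (median 4.98). Signalling by interferon gamma was not tested.

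**Figure D3:**
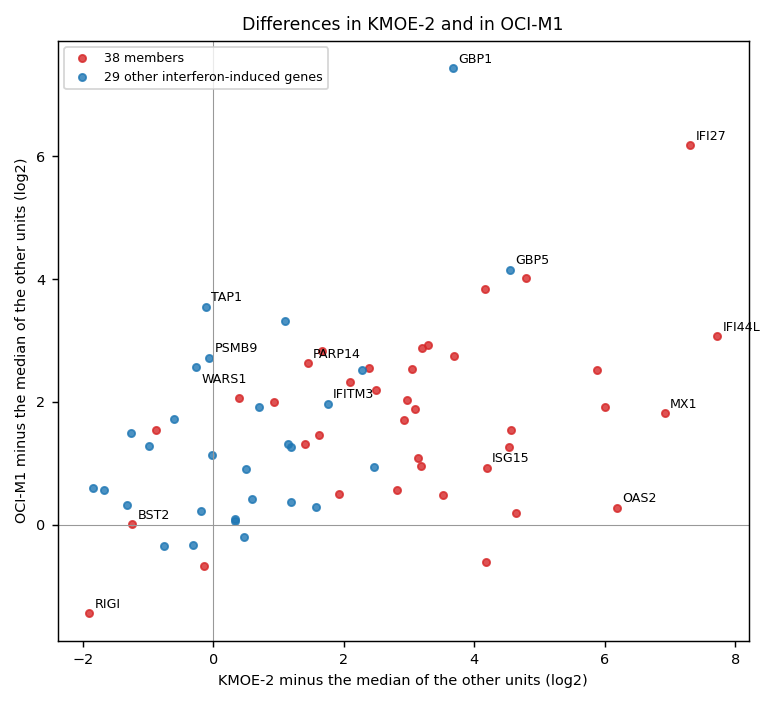
Each point is a gene, by its log2 level in KMOE-2 (horizontal) and in OCI-M1 (vertical) minus the median of the other 29 units; red points are the 38 members and blue points 29 other interferon-induced genes. IFI27 is high on both axes, MX1 and OAS2 mainly in KMOE-2, and GBP1, TAP1 and PSMB9 mainly in OCI-M1.

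Other units with high scores had fewer members up than KMOE-2. SET2 was at least 4-fold up for 8 members (5.50% of all genes tested), with the highest EPSTI1, PARP9 and ISG20 of any unit. OCI-M2 was 4-fold up for 12 (5.67%), ME-1 for 9 (2.96%) and F-36P for 11 (4.57%). At the low end, 8 members lay at least 4-fold below the median of the other units in KASUMI-1 (2.80% of all genes tested), 7 in SKM-1 (2.04%) and 7 in HL-60/PLB-985 (3.08%). Over the 30 units the score correlated with GATA1 at r = 0.54, and at 0.52 without KMOE-2, as a description. With the log2 GAPDH ratio r was -0.21 and -0.17. Of the erythroid markers, only GATA1 was set against the score. GATA1 lay between 10.27 and 11.36 in KMOE-2, OCI-M1, SET2, OCI-M2 and F-36P, all of high score. It was also high in HEL (11.00), MOLM-16 (10.72) and GF-D8 (10.34), whose scores were -0.31, -0.33 and -0.56.

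The members varied together. The median Pearson r over their 703 pairs was 0.41 across 30 units, and that over pairs of all genes tested was 0.013. Without KMOE-2 it was 0.32. Set against the mean of the other members, 30 of 38 genes had r above 0.5, and 23 without KMOE-2. IFI44L (0.88, and 0.82 without KMOE-2), IFIT3 (0.87 and 0.87) and IFI44 (0.86 and 0.81) followed the rest most closely. MX1 had 0.50 over all units and 0.15 without KMOE-2, and OASL 0.58 and 0.23, so their likeness to the rest lay mainly in KMOE-2. XAF1 (0.23), HERC5 (0.16), TRIM22 (0.10), BST2 (0.10), MX2 (-0.24) and RIGI (-0.43) did not follow the rest. For RIGI this holds for the probe set used. Its other probe sets, which did not follow that one, were not compared in this way. These values share 1 array for each line, and differences in RNA quality or signal between arrays enter all of them.

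Members that are neighbours in the genome were compared next. In the order of protein-coding genes in RefSeq, 14 pairs of members had at most 2 genes between them, and the median r of these pairs was 0.71 over 30 units and 0.66 without KMOE-2. IFIT1 and IFIT2 on chromosome 10 had r = 0.88, OAS1 and OAS2 on chromosome 12 had 0.80, IFI44 and IFI44L on chromosome 1 had 0.78 and CMPK2 and RSAD2 on chromosome 2 had 0.72. HERC5 with HERC6 on chromosome 4, at 0.37, and MX1 with MX2, at 0.18, were the pairs below 0.5. Without KMOE-2, OAS2 with OAS3 fell below it as well, at 0.37.

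The genes outside the group whose levels were most like the members' mean, by Pearson r over 30 units, were GBP4 (0.77), ZNF175 (0.74), GMPR (0.73), CAVIN2 (0.72), UBE2L6 (0.72), UBA6 (0.71), PLAC1 (0.70), VRK2 (0.70), ZNF462 (0.70) and RTL9 (0.68). UBE2L6 is the enzyme that hands ISG15 to its ligases. Without KMOE-2 the 10 were GBP4 (0.75), GMPR (0.74), UBA6 (0.73), UBE2L6 (0.72), IL15 (0.71), AKR1C3 (0.70), MPP1 (0.70), VRK2 (0.69), PLAC1 (0.68) and ZNF462 (0.68).

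Sublines of the same origin differed at members of the group, as they did at many other genes. The members also spread more over the 30 units than all genes tested (median SD 1.56 against 0.80). Between HL-60 and PLB-985, 16 of 38 members were at least 2-fold apart, 10 lower and 6 higher in HL-60, against 26.7% of all genes tested. OAS3 was 5.32 in HL-60 and 8.77 in PLB-985, IFI6 6.19 and 8.74, and IFIT1 4.63 and 6.97. XAF1 went the other way, at 8.75 in HL-60 and 5.51 in PLB-985, as did CMPK2 at 9.19 and 6.07. The GAPDH ratio was 7.08 for HL-60 and 0.933 for PLB-985, and its part in these differences was not tested. Between KG-1 and KG-1A (ratios 0.922 and 0.963), 11 of 38 members were at least 2-fold apart, not far above the 20.7% of all genes. Of these, 9 were lower in KG-1, among them IFI44L (4.19 and 8.23), IFI44 (8.45 and 11.19), MX1 (5.31 and 7.81) and HERC5 (8.03 and 10.22). EPSTI1 and XAF1 were higher in KG-1, EPSTI1 at 12.35 against 10.46. Each line had a single array, so no test of these differences is possible.

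**Figure D4:**
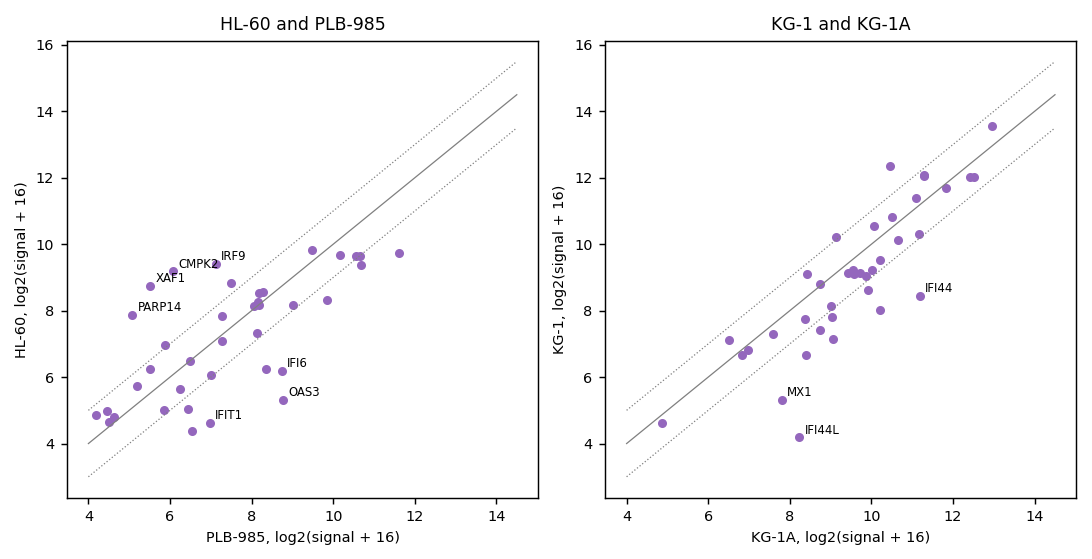
Each point is 1 of the 38 genes, by log2(signal + 16) in PLB-985 (left panel) or KG-1A (right panel) on the horizontal axis and in HL-60 or KG-1 on the vertical axis; the full line marks equal levels and the dotted lines a 2-fold difference. IFI44L, IFI44 and MX1 lie below the dotted band for KG-1, and OAS3 and IFI6 for HL-60.

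The series was made to relate expression to the response of the lines to inhibitors of the PIM kinases. Response was not used here, so the question was whether the members vary with the level of the drug targets themselves. For each gene limma gave the slope on the log2 level of PIM1, PIM2 or PIM3 over the 30 units, with p-values adjusted by Benjamini and Hochberg's method over all genes tested and 0.05 as the threshold. Since members vary together, their counts do not stand for as many independent observations.

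On PIM1, 0 of 38 members passed limma's test, as against 0.00647% of all genes tested that rose with PIM1 and 0% that fell. At an unadjusted p under 0.05, RSAD2, PARP14 and CMPK2 had positive slopes, or 3 of 38 members where 3.77% of all genes did. OAS2 had a negative one, 1 of 38 against 3.35%. Without KMOE-2, 9 members in place of 4 had an unadjusted p under 0.05 and 30 slopes in place of 20 were positive. With any other unit left out, 2 to 5 members did and 17 to 23 slopes were positive. On PIM2, 0 of 38 passed and 9 rose at an unadjusted p under 0.05, against 0.725% and 8.78% of all genes tested. Of the 38 slopes on PIM2, 31 were positive, and their median was 0.40 against -0.04 for all genes. The largest belonged to IFI27 (1.17 ± 0.48 SE), CMPK2 (1.07 ± 0.36) and IFIT3 (1.07 ± 0.32), and the lowest adjusted p from limma was 0.0731, for IFIT3. Without KMOE-2, IFIT3 (1.17 ± 0.28, adjusted p = 0.0251 by limma) and PLSCR1 (0.70 ± 0.18, adjusted p = 0.0339) passed. Scaling mattered here. After quantile normalization 6 members passed and after median centring 14, where the median slope of all genes itself moved from -0.04 to 0.15. OCI-M1 had the highest PIM2 of all units, 12.06, and without it the median slope of the members was 0.23, 5 members had an unadjusted p under 0.05 and 0 of all genes passed. Without KMOE-2 that count of members was 17 in place of 9. In RPMI 1640 without cytokine alone it was 1, with a median slope of 0.04 (n = 19 units).

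Of the other interferon pathway genes, JAK2 rose with PIM2 by 1.10 ± 0.22 (SE) and passed limma's test (adjusted p = 0.0174). IKBKE, a kinase upstream of interferon production, fell by 0.66 ± 0.15 (adjusted p = 0.0232 by limma), and IRF5 fell by 1.13 ± 0.30 (adjusted p = 0.0482). All 3 calls were lost without OCI-M1. The 7 interferon genes, 29 genes of the second interferon-induced list and 7 negative regulators that were tested gave 0 calls on any PIM gene.

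On PIM3, PLSCR1 fell by 1.30 ± 0.28 (SE) per log2 unit and was the 1 member to pass (limma, adjusted p = 0.0380), against 0.291% of all genes that fell. Slopes were negative for 33 of 38 members, with a median of -0.62 against 0.05 for all genes, and 11 fell at an unadjusted p under 0.05, against 8.63% of all genes. With the log2 GAPDH ratio as a covariate the slope of PLSCR1 was not past the threshold (adjusted p = 0.998), nor did any of all genes pass, while its slope was -1.05 ± 0.35 (SE) and the median slope of the members was -0.63. There, 5 members had an unadjusted p under 0.05, against 12 without the covariate. The call was also lost without the 8 arrays of high ratio, without NOMO-1 and GF-D8, and without any 1 of 8 units: GF-D8, HEL, HL-60/PLB-985, ML-2, NB-4, OCI-M1, OCI-M2 and SET2. In the fits that left out 1 unit the slope of PLSCR1 stayed between -1.44 and -1.20, and after median centring it was -0.48.

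The level of IRF9, the DNA-binding subunit of ISGF3, was used as a further predictor. It is itself a member, so the remaining 37 were read, and this fit was added after the data were seen. The r of IRF9 with the mean of the other members was 0.72, and 0.78 without KMOE-2. Positive slopes on IRF9 therefore restate that likeness and are no separate result about ISGF3. With IRF9, 3 of 37 members rose (limma), against 0.0388% of all genes tested, and 27 rose at an unadjusted p under 0.05, against 5.84%. IFI27 rose by 2.0 ± 0.34 (SE) per log2 unit of IRF9 (limma, adjusted p = 0.0142), IFI44L by 1.5 ± 0.29 (adjusted p = 0.0278) and SAMD9L by 0.87 ± 0.17 (adjusted p = 0.0278). Only 6 of all genes rose and 0 fell, and the others were AKR1C1, CDC42BPB and REC8. Slopes were positive for 34 of 37 members, and the median over the 37 was 0.73 against 0.01 for all genes. The exceptions were HERC5, MX2 and, on the probe set used, RIGI. Without KMOE-2 the same 3 members passed. Without OCI-M1 or without SET2, both rich in IRF9, 0 passed, and the median slopes were then 0.72 and 0.75.

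**Figure D5:**
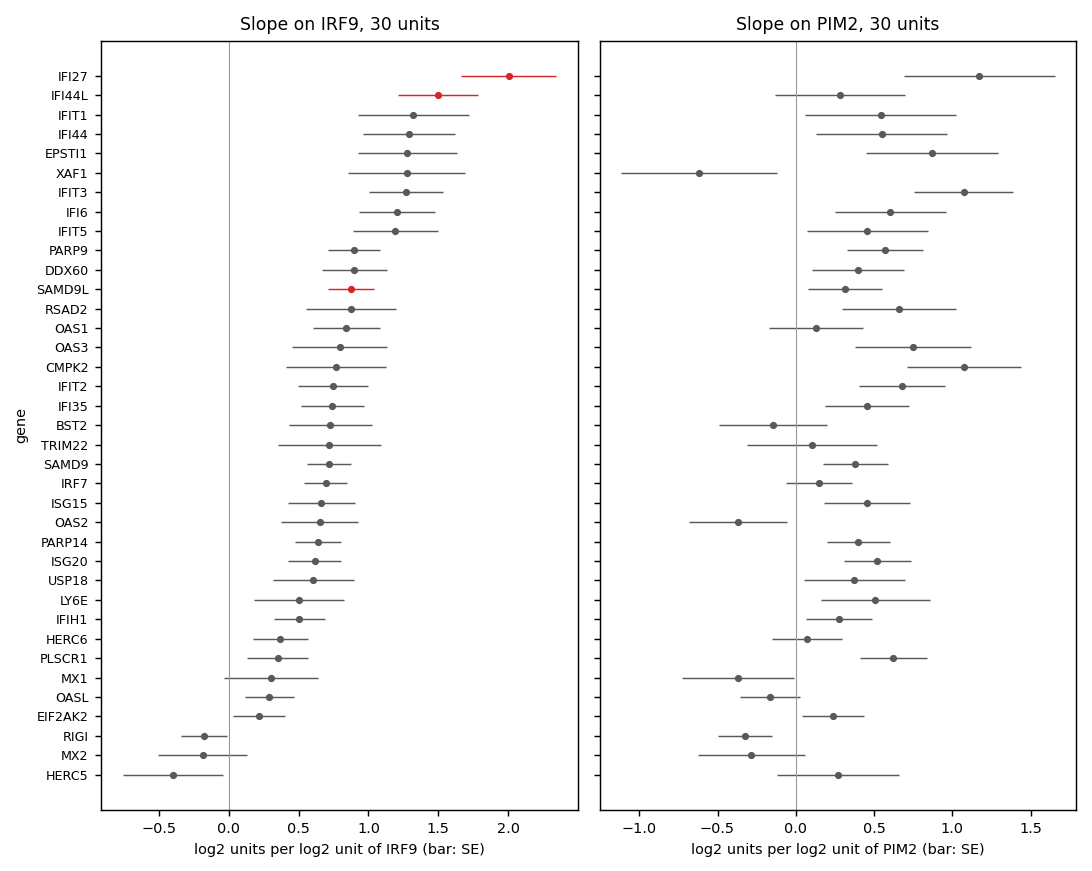
Points are limma slopes over 30 units, in log2 units of the gene per log2 unit of IRF9 (left) or PIM2 (right), with bars of 1 standard error, for 37 members in the order of the IRF9 slope. The 3 genes in red, IFI27, IFI44L and SAMD9L, passed the adjusted threshold on IRF9, and none did on PIM2.

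Lines grown with IL-3, GM-CSF or SCF were set against lines whose medium names no cytokine, 4 against 23 units. This asks whether the added cytokine goes with the level of the members. Of the lines compared, only OCI-AML2, OCI-AML5 and OCI-AML3 grew in alpha-MEM, so for them cytokine and medium cannot be told apart. By limma 0 of 38 members passed, as did 0% of all genes in either direction. At an unadjusted p under 0.05 there was 1 member, HERC6, lower with cytokine, where 2.83% of all genes were lower. HERC6 averaged 7.13 ± 0.81 (SD, n = 4) with cytokine, at 8.07 in F-36P, 6.66 in OCI-AML2, 7.50 in OCI-AML5 and 6.29 in OCI-AML3. Without cytokine it averaged 8.49 ± 0.95 (SD, n = 23), from 7.30 through a median of 8.55 to 11.58, so the groups overlapped. The estimate was lower for 25 members and higher for 13, with a median difference of -0.36 against -0.06 for all genes. The 4 cytokine lines were not alike. F-36P was the highest of the 4 for 25 members and OCI-AML3 the lowest for 20. These counts were made over the members alone, which vary together, and were not set against all genes tested. Without F-36P the median difference was -0.66, without OCI-AML3 it was -0.06, and without KMOE-2 it was -0.23.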

How the data were processed

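The authors deposited 1 intensity per probe set and array, on a linear scale. They used Affymetrix Expression Console per the submitters' processing notes, with version and summarization method not given in the sources used here. With 2% of probe sets cut from each end, the deposited values averaged 500 to 500.1 on every array. The analysis used log2(signal + 16) of the deposited intensity and no further scaling. Genes were tested if they exceeded 6.73, the overall median, in at least 3 units. Slopes and differences came from limma 3.58.1 in R 4.3.3 (lmFit and eBayes, trend on), with two-sided tests and Benjamini-Hochberg adjustment, and were tested on simulated data. There is 1 array for each line, so p-values reflect only how lines differ from each other, and precision is limited by how many arrays there are. An entry spelled KG1 and marked with a question mark in the labels' protocol was taken as KG-1A.

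The members, pathway lists and tests were chosen with earlier results of these data known. Full values are given for the 20 members of largest SD and for those passing a test. Promoters are from RefSeq, GRCh38.p14. The GAPDH limit of 2, the IRF9 fit and the next probe set for RIGI were chosen after seeing the data. One planned fit is not reported here, and response to PIM inhibitors was not used here. Alternatives were other pseudocounts, scalings, filters and probe set rules, a GAPDH covariate and units left out.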

Additional observations from a re-analysis of the deposited data

Results flagged for a closer look

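Within the 4 lines grown with a cytokine, 1 line stood far from the other 3 for 6 of the 38 members, by Dixon's test at its 95% critical value, which picks out about 1 in 20 groups by chance. The test was run on the members alone, with no share over all genes to set beside it. Since members vary together, the 6 are not independent of each other. F-36P was the far line for 5 of them, each time as the highest. USP18 was 10.21 in F-36P and 5.50 in the next of the 4. IFI44 was 9.53 in F-36P and 6.31 in the next. RSAD2 was 10.31 against 6.53, EIF2AK2 12.26 against 9.79, and LY6E 13.10 against 10.40. PARP14 was 7.36 in OCI-AML3, the lowest of the 4, where the next lowest had 8.56. F-36P is also the 1 line of the 4 that grew in RPMI 1640 with IL-3, so line and culture cannot be told apart.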

How the results depend on the processing

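The slopes of the members that passed a test, PLSCR1, IFI27, IFI44L and SAMD9L, kept their direction under every alternative run. The reading of RIGI in KMOE-2 reversed, from -1.91 against the median of the other units to 3.46 with the next probe set. The median slope of the members on PIM1, 0.0037, took both signs, from -0.03 without OCI-M1 to 0.09 without KMOE-2. The counts of members highest in KMOE-2 (23 to 24) and at least 4-fold up there (24 to 28) kept within 1.5 times, and the counts passing on PIM1 and on added cytokine were 0 under every alternative. On PIM2 the count of members passing, 0 in the analysis reported, was 6 after quantile normalization, 14 after median centring and 2 without KMOE-2, and 0 to 2 when each unit was left out in turn. On PIM3 it was 1, but 4 after quantile normalization and 3 with 32 lines as separate units. It was 0 after median centring, with the mean of all probe sets, without NOMO-1 and GF-D8, with the GAPDH covariate, with eBayes without trend, without the 8 arrays of high GAPDH ratio and in RPMI 1640 alone. Left-out units gave 0 to 2, and 2 came without KG-1/KG-1A. On IRF9 it was 3, but 7 after quantile normalization, 15 after median centring, 0 without the 8 arrays and 0 in RPMI 1640 alone, and 0 to 8 with units left out in turn: 8 without OCI-AML3, 7 without SH-2, 6 without HEL, 1 without KASUMI-1 and 0 without OCI-M1 or SET2. Median centring moved the median slope of all genes to 0.15 on PIM2, 0.14 on PIM3 and 0.11 on IRF9. The median r between members, 0.41, was 0.32 without KMOE-2, 0.44 with a pseudocount of 64, 0.43 after quantile normalization, 0.44 without NOMO-1 and GF-D8 and 0.36 as Spearman's rho. The cause of these changes was not tested. The adjusted p of PLSCR1 on PIM3 by limma reached 0.998 over its alternatives. Genes of low signal, such as IFNB1 outside KMOE-2, lie near the lowest readings of the arrays, where differences are least certain. No paired analysis was possible because no replicate numbers in the labels pair lines across groups.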
